A study of Mus musculus with 12 samples.

Results

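Megf6, Draxin, Tspan18, Mrgprf, Dpep1, Clu and Sesn1 are 7 genes outside the bone matrix lists whose transcripts were far lower in interferon-treated osteoblast cultures than in control cultures at day 14 or day 21. They were taken by symbol from the 55291 rows of the gene count table, and all 7 were among the 17289 genes that passed the filter on low counts. They were picked from the day 14 and day 21 values themselves, with no numerical cut-off for "far lower". The differences between arms on those days, and all changes over time that use them, are therefore descriptions and carry no test. The contrast between the arms at day 0 was not used in the choice and was tested.

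The cells were MC3T3-E1, an established line of mouse calvarial preosteoblasts that lays down a mineralising matrix when it is driven to differentiate. RNA was sequenced at day 0 (2 days after confluence, in 10% fetal bovine serum), day 14 and day 21 of differentiation. At each day there was a control group and a group labelled as given mouse interferon beta (IFN) at 50 mg/L from the start of differentiation, which makes 6 groups of 2 libraries. Whether cells sampled at day 0 in the IFN arm had already met the cytokine is not stated, and separate cultures are not stated for the 2 libraries of a group, so p-values measure the spread between libraries, which may be technical. All groups are cultures of this 1 line.

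Interferon beta is a type I interferon. It binds a 2-chain receptor that activates JAK kinases, and a complex of transcription factors that forms in response binds a DNA element termed ISRE and turns on antiviral genes. Lower expression of other genes is part of the response to interferon in many cells, by routes that are less uniform. The 7 genes have unlike roles. Draxin and Clu encode secreted proteins, an axon guidance cue that also antagonises Wnt signalling and the extracellular chaperone clusterin. Megf6 encodes a protein built of repeated EGF-like domains. Tspan18, Mrgprf and Dpep1 encode membrane proteins: a tetraspanin, an orphan receptor of the Mas-related G protein-coupled family, and a membrane-bound dipeptidase that splits cystinyl-glycine and leukotriene D4. Sesn1 encodes sestrin 1, an intracellular leucine sensor induced by p53 and FoxO factors that restrains mTORC1.

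The genes lie on 6 chromosomes of the mm10 build, all annotated as protein-coding in GENCODE M21. Megf6 (chr4:154170730-154275713, plus strand) and Draxin (chr4:148098437-148130698, minus strand) share chromosome 4. Tspan18 is at chr2:93201760-93334505 (minus), Mrgprf at chr7:145300828-145309557 (plus), Dpep1 at chr8:123186242-123201812 (plus), Clu at chr14:65968483-65981547 (plus) and Sesn1 at chr10:41809935-41908424 (plus). All 2486 exon bases of Dpep1 lie within the annotated span of Gm20388 on the same strand. Whether they coincide with exons of Gm20388 was not measured. If they do, reads of the pair could be split or dropped, so the level of Dpep1 is uncertain. For Draxin, 126 exon bases lie within the span of Mad2l2 on the opposite strand. The strand setting of the counting is not given in the sources used here, and Mad2l2 itself had 10.6 and 13.4 CPM (counts scaled to a common library total) in control and 9.37 and 9.80 in IFN at day 14.

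RefSeq start sites on GRCm38.p6 were at hand for 4 of the 7 genes, in 5 windows, and the 250 bases before the start are shown for 3 of them because these windows differ in composition although the transcripts were all lower with IFN. Capitals mark every match, on either strand, to the GC box GGGCGG, the SOX and TCF core CTTTGT, the E box CAGCTG and the RUNX core TGTGGT. All are printed 5′ to 3′ along the gene's strand, for chr4:154170463-154170712 (plus), chr4:148130699-148130948 (minus) and chr8:123185985-123186234 (plus).
Megf6: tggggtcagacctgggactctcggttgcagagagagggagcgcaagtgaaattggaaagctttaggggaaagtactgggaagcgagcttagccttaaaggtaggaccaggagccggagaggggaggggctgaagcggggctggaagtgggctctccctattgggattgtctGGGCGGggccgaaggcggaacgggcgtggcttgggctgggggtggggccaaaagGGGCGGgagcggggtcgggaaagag
Draxin: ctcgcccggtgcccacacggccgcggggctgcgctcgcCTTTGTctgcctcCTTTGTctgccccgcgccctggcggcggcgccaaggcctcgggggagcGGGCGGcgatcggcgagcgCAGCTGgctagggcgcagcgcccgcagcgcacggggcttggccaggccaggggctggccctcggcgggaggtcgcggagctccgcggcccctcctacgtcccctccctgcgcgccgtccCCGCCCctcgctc
Dpep1: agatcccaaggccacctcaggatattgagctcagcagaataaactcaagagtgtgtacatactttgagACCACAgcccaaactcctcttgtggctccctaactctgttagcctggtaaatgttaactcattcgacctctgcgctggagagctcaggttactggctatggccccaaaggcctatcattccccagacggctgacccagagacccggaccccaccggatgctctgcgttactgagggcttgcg
The Draxin window was 79.6% G and C and the Megf6 window 63.2%, against 53.6% for Dpep1 and a median of 52.4% over 32851 windows of this length. Megf6 had 2 GC boxes. Draxin had 2 GC boxes, 2 SOX and TCF cores and 1 E box, and Dpep1 had 1 RUNX core. Both Sesn1 windows, at chr10:41810324-41810573 and chr10:41887189-41887438 (plus), held 4 GC boxes, which can overlap, with 70.0% and 71.2% G and C. In all windows the GC box occurs in 32.7%, the SOX and TCF core in 16.5%, the RUNX core in 14% and the E box in 13%. None of the 5 windows held the ISRE, written as GAAA, then any 2 bases, then GAAA (2.98% of all windows), the STAT site TTCNNNGAA (7.02%) or the TATA box TATAAA (12.4%), searched on both strands. These are letter matches in 250 bases and say nothing of binding elsewhere.

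The 12 libraries held 29772425 to 38908453 counts and 20974 to 23633 detected genes. Irf7, a standard interferon-induced gene, had 720 and 742 CPM in IFN against 3.17 and 6.71 in control at day 14. All 10 osteoblast markers were detected at days 14 and 21, and Ibsp was at 0 in both control libraries at day 0. The list had a summed level of 17769 to 25471 CPM in control and 10818 to 10943 in IFN at day 14, and 22128 to 31201 against 18522 to 19614 at day 21. Such sums follow the most abundant genes. The median log2 fold change of the 10 markers, IFN against control, was -1.15 at day 14 and -1.07 at day 21. Bglap, the osteocalcin gene, was under 1 CPM in every day 14 library. Control libraries scattered more than IFN libraries, with a median SD between replicates of 0.24 to 0.44 on the log2 CPM scale against 0.084 to 0.11. Control day 14 replicate 1 had a summed level of 14 hypoxia response genes of 9858 CPM against 2496 in replicate 2. Control day 21 replicate 2 had a summed level of 14 endoplasmic reticulum stress genes of 59393 CPM against 3590 in replicate 1. For control day 0 replicate 1 the osteoblast marker sum was 12967 CPM against 22491 in replicate 2. Their part in the differences was not tested, and where leaving out 1 library moved a difference of the 7 genes between arms at day 14 or 21 by over 1.5 times, its value without that library is given too. In RNA from whole cultures, fewer cells of a type and less RNA per cell cannot be told apart.

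At day 14 every one of the 7 genes was lower in both IFN libraries than in both control libraries. That pattern held for 27.1% of all genes tested, and nothing is read from the count because the same libraries chose the members. The median log2 fold change of the 7 was -3.67, against -0.0075 over all genes. Megf6, Draxin, Tspan18 and Mrgprf formed a group between 12.7-fold and 17.4-fold lower. Dpep1, Sesn1 and Clu were between 2.47-fold and 4.07-fold lower, so the name of the set covers unequal sizes of difference. Ranked from the lowest fold change of 17289 genes, Megf6 was at place 74 and Clu at place 1014. At day 21, 5 of 7 were lower without overlap (18.5% of all genes tested were), and the median of the 7 was -1.72 against -0.011 over all genes. That median was -1.07 without control day 21 replicate 2. Clu had the lowest value at day 21 with all libraries, and Mrgprf (-2.32) was below Clu (-1.84) without control day 21 replicate 2.

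**Figure D1:**
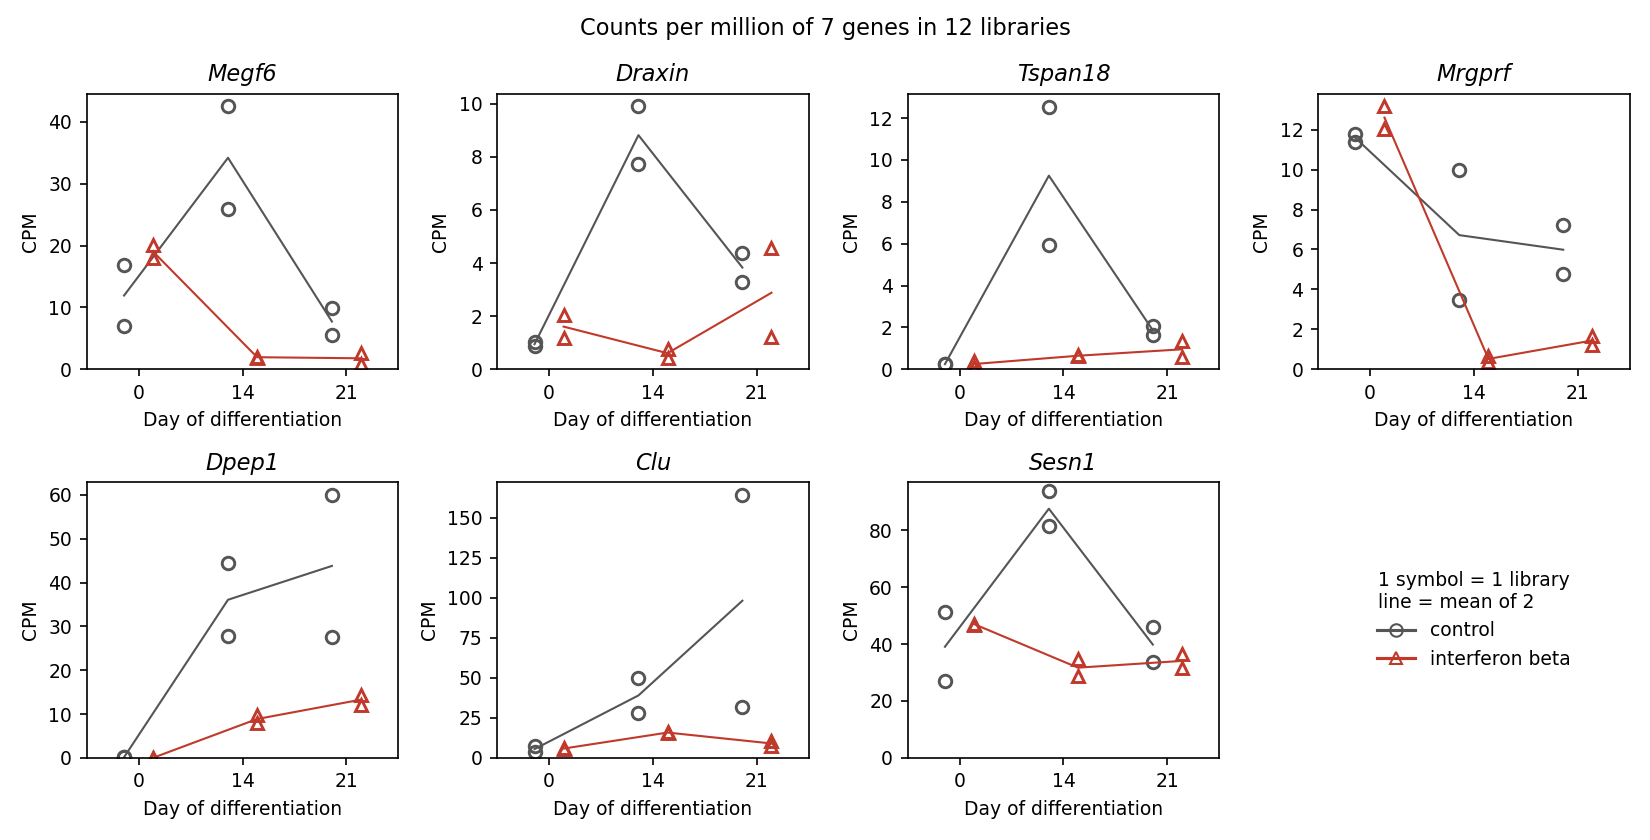
CPM (linear axis from 0) of each gene by day, with 1 symbol for each library (circles control, triangles IFN) and lines through the means of 2 libraries. The IFN symbols lie below both control symbols for every gene at day 14, whereas at day 21 they overlap for Draxin and Sesn1.

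Among the extracellular and EGF-repeat proteins, Megf6 had 42.5 and 25.9 CPM in the control libraries and 1.88 and 2.04 in the IFN libraries at day 14. The groups were far apart, and the fitted value was 17.4-fold lower (log2 fold change -4.12 ± 0.58 SE, 2 libraries a group). At day 21 control had 5.54 and 9.92 CPM and IFN had 2.67 and 0.893. The groups still did not overlap, at -2.11 ± 0.55. IFN replicates differed from each other there, so the value was -3.10 without IFN day 21 replicate 1 and -1.52 without replicate 2. Over the 6 groups Megf6 was highest in control at day 14 and lowest in the IFN groups at days 14 and 21, which overlapped each other.

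Draxin, the guidance cue and Wnt antagonist, had 7.72 and 9.90 CPM in control and 0.436 and 0.779 in IFN at day 14. Its groups did not overlap and the value was 14.5-fold lower, at -3.86 ± 0.63. On day 21 the control libraries had 3.29 and 4.37 CPM and IFN had 4.55 and 1.21. One IFN library was above both control libraries and the other below them. The difference of -0.41 ± 0.55 was smaller than its error and took its direction from 1 library: it was -1.65 without IFN day 21 replicate 1 and 0.26 without replicate 2. For Draxin, the description "far lower" therefore held at day 14 and not at day 21.

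Clu, the clusterin gene, had 28.0 and 49.9 CPM in control and 16.1 and 15.4 in IFN at day 14. The groups did not overlap, and the difference was -1.30 ± 0.61. At day 21 control had 32.0 and 164 CPM and IFN had 10.5 and 7.43. Both control libraries were above both IFN libraries, and the fitted difference was 10.9-fold (-3.45 ± 0.66). The control library with 164 CPM is the one with the high endoplasmic reticulum stress sum. Without it the difference was -1.84, and without the other control library it was -4.18.

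Among the membrane proteins, Tspan18 had 5.95 and 12.6 CPM in control and 0.681 and 0.616 in IFN at day 14. The groups were apart, and the fitted value was 14.2-fold lower (-3.83 ± 0.60), or -3.19 without control day 14 replicate 2. By day 21 control had 1.66 and 2.07 CPM and IFN had 1.34 and 0.576. The groups did not overlap but lay close together, at -0.96 ± 0.56, or -1.68 without IFN day 21 replicate 1. At day 0 Tspan18 was under 0.4 CPM in all 4 libraries, so most of its signal was in control cultures at day 14.

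Mrgprf, the orphan receptor, had 9.97 and 3.46 CPM in control and 0.654 and 0.389 in IFN at day 14. The control replicates differed from each other, yet the lower of them was above both IFN libraries. The fitted value was 12.7-fold lower (-3.67 ± 0.52), or -2.71 without control day 14 replicate 1, the library with the high hypoxia sum. At day 21 control had 7.20 and 4.77 CPM and IFN had 1.68 and 1.21, a difference of -2.05 ± 0.48. Mrgprf was most abundant at day 0, where no library was under 11 CPM.

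Dpep1, the dipeptidase, had 44.4 and 27.8 CPM in control and 9.80 and 7.92 in IFN at day 14. The groups did not overlap, and the value was 4.07-fold lower (-2.02 ± 0.38). Control at day 21 had 27.6 and 59.9 CPM and IFN had 14.4 and 12.2, again without overlap, at -1.72 ± 0.37. Without control day 21 replicate 2 that value was -1.07. Per kilobase of exon, Dpep1 was at 3.56 RPKM in IFN at day 14, above Megf6 (0.249), Mrgprf (0.236), Draxin (0.117) and Tspan18 (0.0793).

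Sesn1, the intracellular member, had 93.7 and 81.6 CPM in control and 34.8 and 28.6 in IFN at day 14. Its replicates were close in both arms, and the value was 2.76-fold lower (-1.47 ± 0.28). At day 21 control had 46.0 and 33.7 CPM and IFN had 36.6 and 31.6. The groups overlapped, and the difference of -0.23 ± 0.28 became 0.034 without control day 21 replicate 1. Sesn1 was highest of the 6 groups in control at day 14, and control at days 0 and 21 both overlapped the IFN group at day 21. Per kilobase of exon, which allows genes to be compared, the control day 14 level was 22.0 RPKM for Sesn1, 14.5 for Dpep1 and 11.3 for Clu. Megf6 had 4.34, Mrgprf 3.03, Draxin 1.69 and Tspan18 1.13 RPKM.

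**Figure D2:**
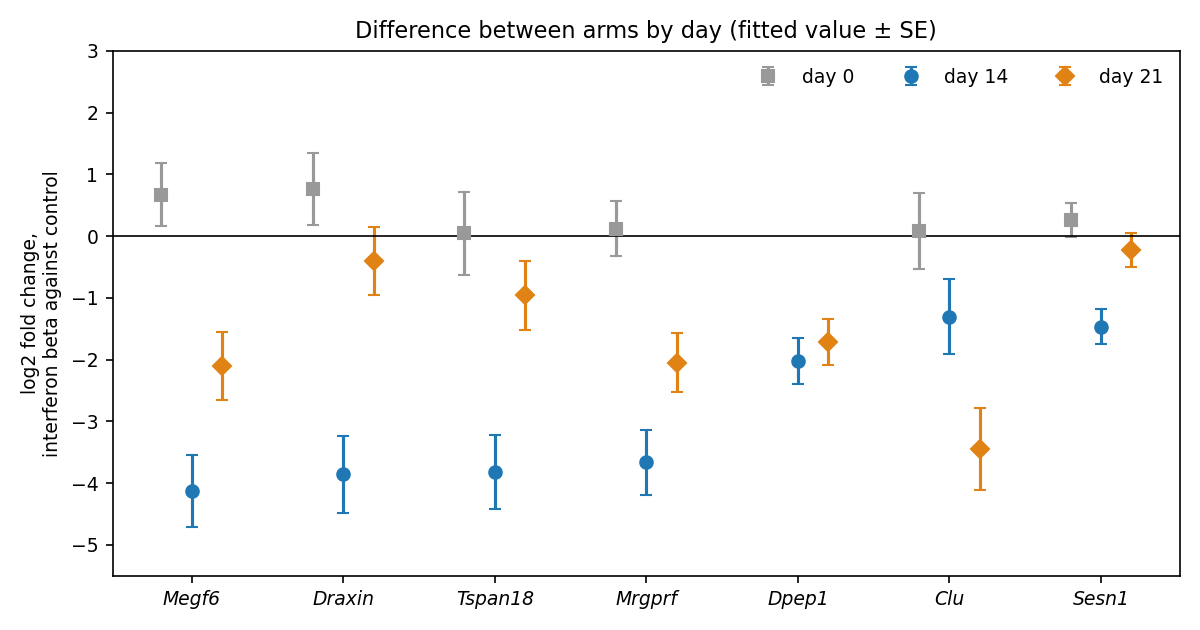
Fitted log2 fold change of IFN against control (vertical axis, with 1 SE from the fit) for each gene at day 0, 14 and 21, without the day 0 value of Dpep1, which rests on 1 count in the IFN arm. At day 14 values run from -4.12 for Megf6 to -1.30 for Clu, and at day 21 from -3.45 for Clu to -0.23 for Sesn1.

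At day 0, where the choice of the genes had no part, none of the 7 passed edgeR's quasi-likelihood test at a Benjamini-Hochberg adjusted p below 0.05. Across all genes tested 0.00578% passed, which was 1 gene. At an unadjusted p below 0.05, 1 of the 7 did, which was Dpep1, against 381 of all 17289 genes, and DESeq2 called 0 of the 7. Dpep1 rested on 5 and 6 counts in the control libraries and 1 and 0 in the IFN libraries. Its control level was 10.5 times the IFN level, with a 95% interval for counting error of 1.53 to 454. The gene that passed was Bpifc, with 0.985 and 0.831 CPM in control and 0 counts in both IFN libraries (edgeR, adjusted p = 0.022).

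Megf6 at day 0 had 6.98 and 16.9 CPM in control and 20.1 and 17.9 in IFN. Draxin had 0.861 and 1.03 against 2.05 and 1.16, and Mrgprf 11.4 and 11.8 against 13.2 and 12.03. These 3 genes were higher in both IFN libraries, which 17.5% of all genes were. Their log2 fold changes were 0.67 ± 0.51, 0.76 ± 0.58 and 0.12 ± 0.44, with edgeR adjusted p of 0.997, 0.997 and 0.998. The Megf6 value was 0.18 without control day 0 replicate 1 and 1.45 without replicate 2, and the Draxin value was 0.29 without IFN day 0 replicate 1. Dpep1 alone was lower in both, as 18.6% of all genes were. Tspan18 (0.246 and 0.252 CPM in control, 0.121 and 0.387 in IFN), Clu (3.54 and 7.38, 5.86 and 5.73) and Sesn1 (27.0 and 51.1, 47.2 and 46.8) overlapped between arms. Across the fits tried, the lowest adjusted p of any of the 7 at day 0 was 0.167, for Sesn1. The median of the 7 was 0.12, against 0.0049 over all genes, and ran from 0.033 without control day 0 replicate 1 to 0.71 without replicate 2. Irf7 had 5.50 and 3.10 CPM in the IFN arm and 2.83 and 2.69 in control on that day, far under its day 14 level with IFN. Of 15 interferon-stimulated genes, edgeR called 0 at day 0. At day 14 it called 15 higher, as 1.30% of all genes were. They summed to 220 to 261 CPM in the IFN arm against 138 to 203 in control at day 0. Exposure at day 0 was not tested, so the lack of calls there is not read as a lack of response to IFN.

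Over time in control cultures, 6 of the 7 genes were higher at day 14 than at day 0 without overlap (21.4% of all genes were) and Mrgprf was lower (21.1% were). High control values at day 14 favoured the choice of a gene, so nothing is read from this count. Dpep1 differed most, from 5 and 6 counts to 2377 counts over the pair of day 14 libraries, at 7.85 ± 0.55 on the log2 scale. Tspan18 followed at 5.19 ± 0.66 (4.56 without control day 14 replicate 2), Draxin at 3.21 ± 0.60 and Clu at 2.83 ± 0.65. Without 1 library Clu ran from 2.35 (control day 14 replicate 2 left out) to 3.46 (control day 0 replicate 2 left out). Megf6 was higher by 1.52 ± 0.52 and Sesn1 by 1.16 ± 0.28. Without 1 library Megf6 ran from 1.03 to 2.29 (control day 0 replicate 2 left out). Mrgprf was lower, at -0.79 ± 0.44, or -1.74 without control day 14 replicate 1 and -0.22 without replicate 2.

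From day 14 to day 21 in control cultures, Megf6, Draxin, Tspan18 and Sesn1 were lower without overlap, at -2.15 ± 0.53, -1.20 ± 0.55, -2.31 ± 0.56 and -1.14 ± 0.28. The Tspan18 value was -1.68 without control day 14 replicate 2. That was 4 of 7, where 19.7% of all genes were lower. These 4 genes shared a maximum at day 14 in control. Nothing is read from it or from the count, because high control values that day favoured the choice. Mrgprf, Dpep1 and Clu overlapped between the later days (no gene was higher without overlap, as 17.8% of all genes were), at -0.16 ± 0.45, 0.28 ± 0.36 and 1.33 ± 0.60. For these 3 the direction turned when control day 21 replicate 2 was left out, to 0.092, -0.39 and -0.29. It also turned without control day 14 replicate 1 for Mrgprf (0.78) and without control day 14 replicate 2 for Dpep1 (-0.034).

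In the IFN arm the course differed by gene. From day 0 to day 14, 4 genes were lower without overlap (36.5% of all genes were) and 3 were higher (37.9% were). Mrgprf was lower by the most, at -4.57 ± 0.54, then Megf6 at -3.28 ± 0.57, Draxin at -1.41 ± 0.61 and Sesn1 at -0.57 ± 0.28. Tspan18 was higher by 1.33 ± 0.64 and Clu by 1.45 ± 0.62. Tspan18 was higher by 2.37 without IFN day 0 replicate 2 and by 0.74 without replicate 1. Dpep1 went from 1 count to 604, a ratio of 619 with a 95% counting interval of 111 to 24500.

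Described with the libraries that chose them, the 7 genes fell into 3 courses. Megf6, Draxin, Tspan18 and Sesn1 had their highest control mean at day 14 and not their highest IFN mean. Low IFN values and high control values at day 14 both favoured the choice, so nothing is read from this. With IFN, Tspan18 was still above its day 0 level at day 14, and Draxin had its highest mean, 2.88 CPM, at day 21. Mrgprf was below its day 0 level at later days in both arms, and further below with IFN. Dpep1 and Clu were above day 0 at later days in both arms, at lower CPM with IFN than in control on each of those days. The fold over day 0 was not smaller with IFN for Dpep1, whose day 0 level in that arm rests on 1 count. From day 14 to day 21 with IFN, Draxin (2.25 ± 0.61), Mrgprf (1.45 ± 0.52) and Dpep1 (0.58 ± 0.37) were higher without overlap, 3 of 7 where 30.5% of all genes were. Clu was lower at -0.82 ± 0.61, where 29.6% of all genes were lower. The values of Megf6 (-0.13 ± 0.56), Tspan18 (0.56 ± 0.58) and Sesn1 (0.10 ± 0.28) overlapped. The Draxin value was 1.01 without IFN day 21 replicate 1 and 2.92 without replicate 2.

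**Figure D3:**
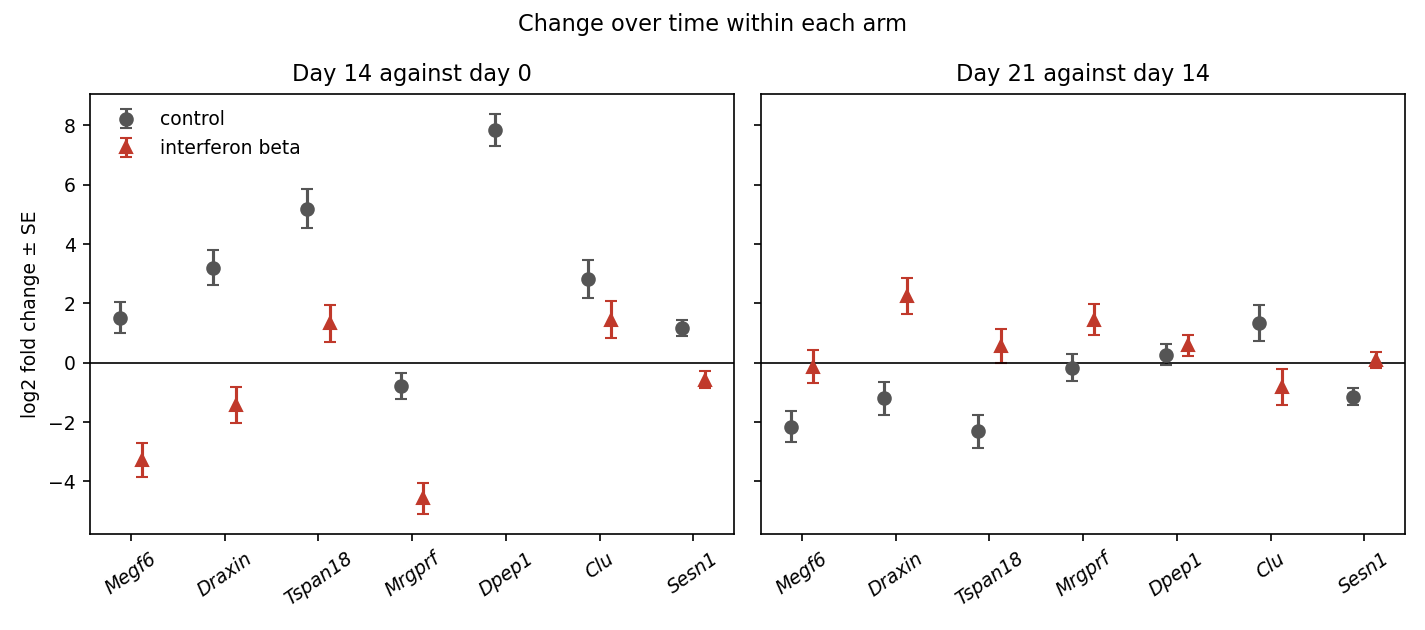
Log2 fold change with SE within control (circles) and IFN (triangles), day 14 against day 0 on the left and day 21 against day 14 on the right, with the IFN day 14 value of Dpep1 left out because it rests on 1 count at day 0. On the left Megf6, Draxin and Sesn1 lie above 0 in control and below 0 with IFN, at 1.52, 3.21 and 1.16 against -3.28, -1.41 and -0.57.

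Marker lists of other cell types each held genes under 1 CPM in all libraries and genes that reached 1 CPM in at least 1 library. Of 7 adipocyte markers, Adipoq, Pparg, Plin1, Cfd and Lep were under 1 CPM in all libraries, and the list summed to 17.0 to 26.4 CPM in control against 7.07 to 8.33 in IFN at day 14. Of 8 macrophage and osteoclast markers, Adgre1, Csf1r, Ptprc, Acp5 and Itgam were under 1 CPM in all libraries, and at day 14 the list summed to 320 to 489 CPM in control against 529 to 542 in IFN. Of 6 endothelial markers Cdh5 and Emcn were under 1 CPM, with a sum of 16.6 to 61.1 against 29.6 to 32.1 CPM. Of 7 chondrocyte markers Acan, Col9a1, Col10a1 and Matn3 were under 1 CPM, with a sum of 158 to 188 against 187 to 197 CPM at day 14 and 172 to 222 against 303 to 334 at day 21. Most of that sum was Sox9, with 175 and 143 CPM in control against 190 and 180 in IFN at day 14. At day 21 Sox9 had 173 and 152 CPM against 319 and 282. The 4 chondrocyte markers tested had a median log2 fold change of -0.37 at day 14 and -0.58 at day 21, with 0 called. Of 6 smooth muscle markers Myocd was under 1 CPM in all libraries, as were Myh11 and Tagln in control at day 0. The 6 summed to 2955 to 3020 CPM at day 0. They summed to 374 to 836 in control against 288 to 335 in IFN at day 14, and to 528 to 1858 against 249 to 277 at day 21. Mrgprf was highest at day 0 as that sum was. The part of these markers in the levels of the 7 genes was not tested.

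The relatives and pathway partners of the 7 genes were mostly not called, as most genes tested were not. Over 9 lists with 153 genes tested, 1 gene rose and 2 fell with IFN at day 14 by edgeR's adjusted p, where 1.30% of all genes rose and 0.995% fell. At day 21, 1 rose and 1 fell, where 0.839% and 0.156% of all genes did. The median log2 fold change of the 153 was -0.21 at day 14 and -0.023 at day 21. DESeq2 called 998 and 635 of all genes at days 14 and 21, and 12 and 8 of the 153. With 1 library left out the count ran from 0 to 10 at day 14 (10 without either control day 21 library) and from 0 to 55 at day 21 (55 without control day 21 replicate 1). At day 0 none was called by either tool, with 3 at an unadjusted p below 0.05, against 381 of all 17289 genes. The matching count over all genes was not taken at day 14, so nothing is read from unadjusted counts of the lists there.

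Among 16 genes of dipeptidase, glutathione and leukotriene metabolism, Anpep, which encodes aminopeptidase N, had 42.9 and 42.0 CPM in IFN and 131 and 112 in control at day 14. It fell by 1.51 ± 0.27 on the log2 scale (edgeR, adjusted p = 0.017). Dpep2 was not called at -0.44 (edgeR, adjusted p = 0.619). Of 16 chaperone and complement genes, the list that fits clusterin, C1s1 fell and C4b rose. C1s1, a complement protease, had 34.7 and 34.8 CPM in IFN against 77.2 and 97.8 in control at day 14 (-1.33 ± 0.25, edgeR adjusted p = 0.019). C4b, complement component 4, had 196 and 194 CPM against 14.5 and 38.5 (2.88 ± 0.51, edgeR adjusted p = 0.017), or 3.76 without control day 14 replicate 2. At day 21 C4b had 169 and 153 CPM against 18.2 and 18.8 (3.12 ± 0.52, edgeR adjusted p = 0.017). C4b and C1s1 have close copies in the mouse genome, so their counts are uncertain. Each of these calls was kept in 9 of 12 fits that left out 1 library. The exceptions were both IFN libraries of the day in question and 1 control library of it: control day 14 replicate 1 for Anpep (adjusted p = 0.112 without it) and C4b (0.109), control day 14 replicate 2 for C1s1 (0.077) and control day 21 replicate 2 for C4b at day 21 (0.170).

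Among 29 axon guidance genes, the list for Draxin, none was called by edgeR at day 14. There 7 passed an unadjusted p below 0.05, and DESeq2 called 2, both lower. At day 21, 1 fell by edgeR. Ntn3, a netrin, had 0.285 and 0.115 CPM in IFN against 1.52 and 2.29 in control (-3.22 ± 0.63, edgeR adjusted p = 0.043), and 1 of 12 fits that left out a library kept it. The 14 EGF-repeat genes tested had a median of -0.65 at day 14 and none was called by edgeR, at an unadjusted p below 0.05, or by DESeq2. Megf9, Megf10 and Megf11 had -0.44, 0.36 and -0.21, none called (edgeR, adjusted p = 0.550, 0.912 and 0.919). Of 20 tetraspanins none was called by edgeR at day 14, with 4 at an unadjusted p below 0.05 and 1 by DESeq2. Both Mas-related receptors that passed the filter, Mas1 and Mrgpre, were not called at day 14, and neither passed an unadjusted p below 0.05 or DESeq2.

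The sestrin list, with partners in amino acid sensing by mTORC1, held 22 tested genes with a median of 0.045 at day 14 and none called (2 at an unadjusted p below 0.05, none by DESeq2). Sesn2 and Sesn3, the paralogs of Sesn1, had 0.16 and -0.62 (edgeR, adjusted p = 0.818 and 0.235). Sesn3 had 200.7 and 251 CPM in control and 146 and 148 in IFN. Of 20 p53 target genes and 16 FoxO target genes none was called at day 14 by edgeR, 4 of each passed an unadjusted p below 0.05, and DESeq2 called 1 and 2. Sesn1 itself counts as a target of both factors, and the other listed targets had medians of -0.031 and -0.31.

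**Figure D4:**
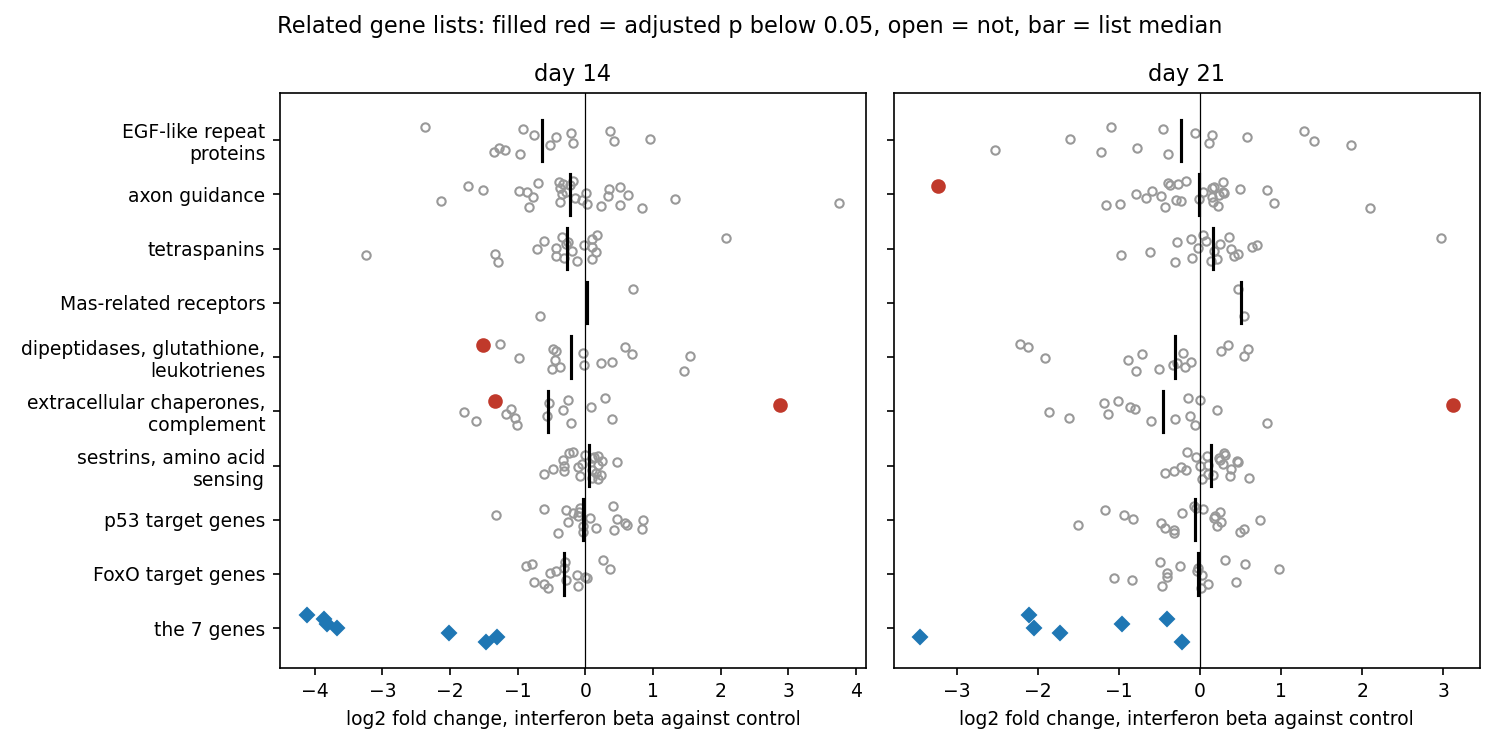
Log2 fold change of IFN against control at day 14 (left) and day 21 (right), with 1 symbol for each gene of the 9 related lists, a bar at each list's median, filled red symbols for genes past an adjusted p of 0.05, and blue diamonds for the 7 genes. List medians at day 14 lie between -0.65 and 0.045, while the 7 genes, which were chosen for low values, lie between -4.12 and -1.30.

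Genes whose log2 CPM ran most like each of the 7 were named from the 3 highest Pearson correlations over the 12 libraries, which share depth, day and arm. For Megf6 these were Fzd7, a Wnt receptor gene (r = 0.95), Plekhg4 (0.95) and Dclk1 (0.94). For Tspan18 they were Zhx3 (0.97), Ccdc71l (0.95) and the Wnt co-receptor gene Lrp5 (0.93). For Draxin they were Nt5dc2 (0.90), Matn2 (0.87) and Stk17b (0.87), and for Sesn1 Plce1 (0.93) and Cacna1g (0.93). For Mrgprf they were Nacad, Gng2 and Ttyh3 (0.98, 0.98 and 0.97), for Dpep1 Ctla2a, Serpina3m and Map7d2 (each 0.98), and for Clu Angpt4, Svil and Sec16a (0.97, 0.95 and 0.93). Most of these companions differed less between arms at day 14 than the gene they resembled. Nothing is read from this, because the 7 genes were chosen for low values and the companions were not. Fzd7 was at -0.60 and Lrp5 at -1.32 at day 14, against -4.12 for Megf6 and -3.83 for Tspan18.

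Between the 7 genes themselves the same measure ran from -0.50 for Mrgprf with Dpep1 to 0.80 for Draxin with Tspan18. Tspan18 with Dpep1, Megf6 with Mrgprf and Dpep1 with Clu each had 0.79, and Megf6 with Sesn1 had 0.78. Tspan18 with Mrgprf had -0.12, although both were over 12-fold lower with IFN at day 14.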

How the data were processed

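RNA-seq counts of 12 MC3T3-E1 libraries were analysed. The deposited values are raw counts of reads per gene, 1 column for each library, and no column was left unmapped. Per the submitters' processing notes the authors used HISAT2, SAMtools and featureCounts on mm10. Versions, annotation and strand setting are not given in the sources used here. With R 4.3.3 and edgeR 4.0.16, genes were kept by filterByExpr over the 6 groups (17289 of 55291), scaled by TMM and fitted with 1 mean per group (6 residual degrees of freedom, robust quasi-likelihood F tests, p adjusted by Benjamini-Hochberg over the 17289 genes, threshold 0.05). CPM use TMM-scaled library sizes, RPKM use GENCODE M21 exon lengths, and log2 CPM use a prior count of 2. SEs are the log2 fold change divided by the square root of F. They draw on the fit to all 12 libraries and are not the spread of the groups compared. For Clu at day 21 the SE was 0.66, where the control pair had an SD of 1.67 on the log2 CPM scale. Totals ran from 29772425 to 38908453 counts, and intervals on counts cover counting error only. The script was tested on simulated data.

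The 7 genes and all lists were chosen with earlier results of these data known. The text names the 7 genes, up to 3 called genes of each related list, their direct paralogs, the 3 most correlated named genes whose mean log2 CPM reached 1 (predicted genes left out), and Irf7 and Sox9 as references. Bpifc and Mad2l2 were named after their values were seen. Also tried were DESeq2 1.42.0, scaling by RLE or by library size only, no low-count filter, a 1 CPM filter, only the groups compared, a replicate block and leaving out each library. Proteins and other start sites are not analysed here. A paralog and a correlated gene that the rule names are not reported here.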

Additional observations from a re-analysis of the deposited data

Results flagged for a closer look

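Megf6, Draxin and Mrgprf had opposite directions at day 0 and at a later day, in every library. Of all genes tested, 17.5% were higher in both IFN libraries at day 0. In both IFN libraries, 27.1% were lower at day 14 and 18.5% at day 21. The share with both patterns was not counted. Megf6 was higher in the IFN arm at day 0 by 0.67 on the log2 scale and had -4.12 at day 14 and -2.11 at day 21. Its day 0 value was 0.18 without control day 0 replicate 1, a library that stood apart, and 1.45 without replicate 2. Draxin had 0.76 at day 0 and -3.86 at day 14, and its libraries overlapped at day 21. Mrgprf had 0.12 ± 0.44 at day 0, a difference smaller than its error, then -3.67 at day 14 and -2.05 at day 21. The difference between days was not tested, because the later days chose the genes, and none of the day 0 values passed the test.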

How the results depend on the processing

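At day 14 all 7 genes stayed below 0 in every fit tried, and at day 21 Megf6, Tspan18, Mrgprf, Dpep1 and Clu did. The median of the 7 ran from -3.69 to -2.71 at day 14, from -1.84 to -1.07 at day 21 and, for day 21 against day 14 with IFN, from 0.0016 to 0.71 when 1 library was left out. Calls over all genes, 1, 396 and 172 at days 0, 14 and 21, became 88, 1175 and 1039 without the filter, 0, 657 and 25 with only the groups compared, and 998 and 635 at the later days with DESeq2. With a replicate block none was called at day 0, and at day 21 the related lists had 1 call instead of 2. Whether equal replicate numbers mark linked cultures is not stated. Correlations of deviations were 0.080 to 0.11 between control groups and -0.051 to 0.021 between other pairs of groups. The block called 200 higher and 131 lower at day 14 and 132 and 15 at day 21. Without 1 library the calls ran from 0 to 50 (without control day 0 replicate 2), from 114 (without IFN day 14 replicate 2) to 1197 (without control day 21 replicate 2), and from 60 (without IFN day 21 replicate 2) to 3866 (without control day 21 replicate 1). The cause was not tested. DESeq2 called 385 higher and 613 lower at day 14 and 351 and 284 at day 21. Library size alone moved the median of all genes by 0.14 at day 21.

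Leaving out both outlying control libraries (day 0 replicate 1 and day 21 replicate 2) was chosen after seeing the data and gave 0, 2751 and 868. There Clu was at -0.35 and Sesn1 at -0.12 at day 0. From day 14 to 21 in control, Mrgprf was at 0.092, Dpep1 at -0.39 and Clu at -0.29. That fit kept control day 14 replicate 1, which also differed from its replicate, in the hypoxia sum. Related-list calls, 0, 3 and 2, became 2, 19 and 23 without the filter, 11 and 1 with only the groups compared (later days), 12 and 8 with DESeq2, 34 and 17 without both libraries, and 0 to 1, 0 to 10 and 0 to 55 without 1 library.

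Leaving out 1 library turned single directions. At day 0 Tspan18 ran from -1.02 to 0.63, Clu from -0.34 to 0.71 and Sesn1 from -0.11 to 0.80. At day 21 Draxin ran from -1.65 to 0.26 and Sesn1 from -0.44 to 0.034. From day 14 to 21 in control Mrgprf ran from -0.74 to 0.78, Dpep1 from -0.39 to 0.70 and Clu from -0.29 to 2.05, and with IFN Megf6 from -1.12 to 0.46, Tspan18 from -0.16 to 1.05 and Sesn1 from -0.027 to 0.26.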
